A study of Sus scrofa domesticus with 6 samples.

Results

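MT1A, MT1X, SLC39A14 and SLC30A1 are 2 metallothioneins and 2 zinc transporters, and they are the 4 of 23556 genes listed in all 6 libraries (33025 in any library) that are described here. They were chosen by name, with their levels in these libraries already known: graft structural cells had been compared with graft immune cells, and control with injured lungs. Those 2 comparisons are therefore given as descriptions, without a test of the members. The data are single-cell RNA libraries of pig lung (Sus scrofa domesticus) from a transplant model of ischemia-reperfusion injury (IRI), the damage that follows when blood returns to a stored organ. Controls are 3 libraries of whole cell suspensions from the right lung of donors. IRI libraries come from single-lung allografts after 24 h of cold ischemia and 8 h of reperfusion, stained for viability and for the leukocyte antigen CD45 and sorted into CD45+ cells (2 libraries) and CD45- cells (1 library). The labels do not say which graft cells came from the donor and which from the recipient, nor which libraries share an animal.

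Metallothioneins are small cytosolic proteins whose many cysteines bind zinc and copper. Their genes are switched on by the zinc-sensing factor MTF1, and also by glucocorticoids, oxidative stress and inflammatory cytokines. SLC39A14 (ZIP14) carries zinc, and also iron not bound to transferrin, into the cytosol and is induced in inflammation. SLC30A1 (ZnT1) sits in the plasma membrane and exports zinc, and its gene is another target of MTF1.

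The libraries held between 19098567 and 40647380 UMIs, the tags that mark single RNA molecules, and 40812 cells were kept. Median depth was 1964 UMIs per cell in the CD45- library and between 2900 and 3199 in the others. Classes were named from marker genes, so each name stands for cells that are like the named type, and levels are given in CPM, a gene's UMIs scaled to a common total within a class and library. Only sums of at least 20 cells are used. Treatment cannot be told apart from sorting, nor from how the library sets were prepared: the IRI libraries list 0 of the 13 mitochondrial genes that the controls list, and control barcodes start at 1001 UMIs against 74 to 117 in the IRI libraries. The labelled tissue could be read in its markers. SFTPC, the surfactant protein of alveolar type 2 (AT2) cells, stood at 118362 CPM in AT2-like cells of the CD45- library. It also stood at 13462 CPM in the immune cells of that library, against 2.05 and 2.89 in those of the CD45+ libraries. SFTPC outside AT2-like cells is used below to scale how much AT2 RNA a class may carry, with its values beside the results. All 6 libraries use running cell names, so the 1159 names they share carry no barcode sequence.

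In the pig genome Sscrofa11.1, RefSeq places MT1A on chromosome 6 from 18672016 to 18673673. It stands at the end of a metallothionein cluster that begins with MT4 at 18611245 and holds 7 protein-coding genes and 1 long noncoding RNA gene. SLC30A1 lies on chromosome 9 from 131633586 to 131636934 and SLC39A14 on chromosome 14 from 6639485 to 6687929. MT1X is listed in the files as ENSSSCG00000030300, and no position is given for it. Metallothionein genes are near-identical copies, so the split of reads between MT1X, MT1A and their neighbours is uncertain. The kept cells held 49439 UMIs of MT1X, 10082 of MT1A, 11285 of SLC30A1 and 5524 of SLC39A14.

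Structural cells of the graft carried much more MT1X than those of control lungs. In blood endothelial-like cells MT1X stood at 212, 171 and 136 CPM in the 3 controls and at 3701 in the CD45- library. In fibroblast-like cells it stood at 140.5, 29.5 and 46.4 in controls and at 1464 in the CD45- library, and in ciliated-like cells at 18.6 and 12.8 against 422. The graft value lay above every control in all 3 classes, by 21.4 times the control mean in blood endothelial-like, 20.3 times in fibroblast-like and 26.8 times in ciliated-like cells. The log2 changes after normalization were 4.82 ± 0.32 (SE, 3 controls and 1 IRI library), 4.73 ± 1.07 and 5.14 ± 0.57 (2 controls). Each rests on a single graft library, whose spread is taken from the controls. MT1A, the other metallothionein of the set, stood at 48.5, 12.2 and 26.4 in blood endothelial-like cells of controls and at 391 in the graft. In fibroblast-like cells it stood at 13.5, 2.73 and 8.11 in controls and at 303 in the graft (log2 changes 4.16 ± 0.41 and 5.74 ± 0.56). With finer clustering the fibroblast-like changes were larger, 6.49 for MT1X and 7.66 for MT1A. That clustering held an unnamed cluster that scored highest for mesothelial markers, with 18, 22 and 36 control cells. At the main clustering, 27 of 262 fibroblast-like cells of control replicate 1 held 94.9% of their MT1X UMIs. The part of the unnamed cluster in the control fibroblast-like levels was not tested. In ciliated-like cells both controls held 0 MT1A UMIs and the graft 54.3 CPM, so MT1A too was above every control in all 3 classes. In ciliated-like cells 42.5 of MT1A would be implied by their SFTPC, and the measured level was only 1.28 times that.

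Counted over genes tested, all 4 members were above every control in blood endothelial-like and in fibroblast-like cells, and 2 members passed the low-count filter in ciliated-like cells, MT1X and SLC30A1, both above. The share of all tested genes whose graft value lay outside the range of the controls, in either direction, was 73.1% in blood endothelial-like, 87.9% in fibroblast-like and 79.9% in ciliated-like cells. Since the members were chosen on this contrast, nothing is read from these counts. In controls the class with the most MT1X was lymphatic endothelial-like, with 659, 464 and 824 CPM, above every other control class. Blood endothelial-like cells came next and did not overlap with them. Smooth muscle or pericyte-like cells had 5.32, 9.18 and 11. The order of MT1A at the top was similar, with 78.1, 36.7 and 78.3 in lymphatic endothelial-like cells, but there the range overlapped with that of blood endothelial-like cells and of macrophage-like cells.

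**Figure D1:**
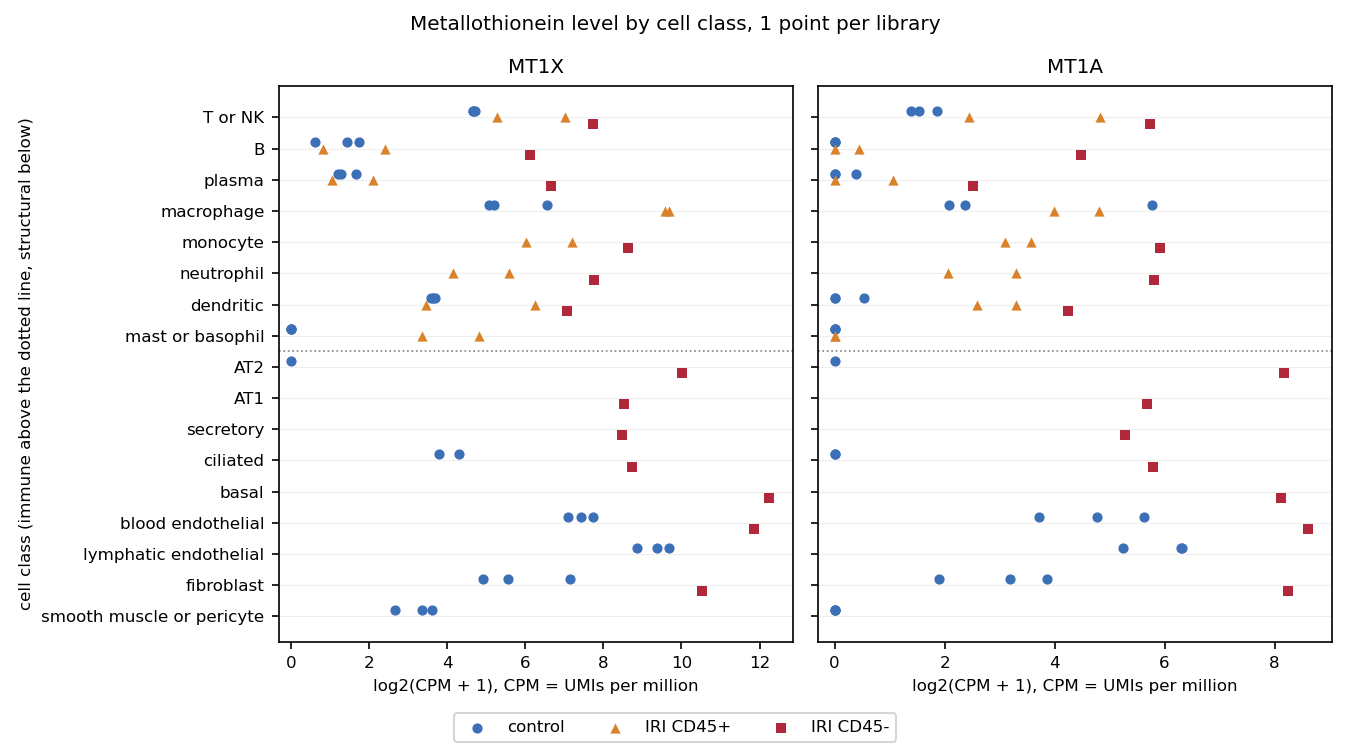
Levels of MT1X (left) and MT1A (right) as log2(CPM + 1) in each cell class with at least 20 cells, 1 point per library (blue circles control, orange triangles IRI CD45+, red squares IRI CD45-). The red squares of blood endothelial, fibroblast and ciliated cells lie to the right of every control, and in macrophages both orange triangles of MT1X do.

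Control and graft cells called blood endothelial-like lay almost wholly in different clusters. Cluster 6 held 79, 71 and 195 control cells, and cluster 22 held 644 of 649 graft cells. The graft cells had markers of both vessel types. The summed level of 13 blood endothelial markers was 4410 CPM there against 8275 to 9619 in controls, and that of 8 lymphatic markers was 4452 against 313 to 728. CCL21, a chemokine of lymphatic vessels, stood at 3081 against 0, 85.4 and 22.6, and PROX1, the lymphatic identity factor, at 30.4 against 4.41, 8.13 and 1.89. LYVE1, another lymphatic marker, went the other way, with 172 against 688, 272 and 225. When cells with a UMI of CCL21, PROX1, MMRN1, RELN, FLT4 or PDPN were left out of every library, 327 of 649 graft cells remained. MT1X in them was 3123 CPM, against 198, 106 and 128 in the same cells of controls, and MT1A was 258 against 55.9, 11.8 and 30.5. The log2 changes were then 4.75 ± 0.29 for MT1X and 3.26 ± 0.44 for MT1A. The graft level of MT1X, with or without those cells, was also above all 3 lymphatic endothelial-like sums of controls. This split was chosen after seeing the data, and it is not specific in this library: 70.9% of AT2-like, 66.3% of ciliated-like and 46.0% of secretory-like cells had such a UMI too, against 49.6% of blood endothelial-like cells.

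Basal-like airway cells and alveolar cells were numerous enough only in the graft. Basal-like cells (504 cells) had the highest MT1X of any named class, 4837 CPM, and 276 of MT1A. AT2-like cells (8145 cells) had 1025 of MT1X and 289 of MT1A. AT1-like cells, the thin cells of gas exchange, had 366 and 50.5, and secretory-like airway cells 353 and 38.1. The only control sum of AT2-like cells was 20 cells of control replicate 1 with 0 UMIs of all 4 members, and 0 of its 40335 UMIs allows up to 74.4 CPM by the limit of 3 counts, which covers counting error only. A further 14 AT2-like cells of control replicate 2, below the minimum of 20, held 5 MT1X UMIs (132 CPM). With each cell thinned to 500 UMIs, an MT1X UMI was found in 65.7% of basal-like, 58.4% of blood endothelial-like, 31.0% of fibroblast-like and 24.1% of AT2-like cells, and in 2.99% of B-like cells of the same library. The shares without thinning were 82.3%, 72.0%, 42.7%, 44.6% and 11.6%, at median depths of 2166, 1091, 1350, 2133 and 2153 UMIs.

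Within AT2-like cells the metallothionein levels were highest in 1 cluster. Cluster 24, 900 cells led by the genes CSF3, IYD, SFTPA1 and SFTPC, had 3208 CPM of MT1X (95% Poisson interval 3145 to 3272) and 1391 of MT1A (1350 to 1434). Clusters 8, 29 and 27, with 3437, 3344 and 464 cells, had 463, 778 and 882 of MT1X and 80.9, 124 and 169 of MT1A. SFTPC was close to even over the 4 clusters, at 122685 CPM in cluster 24 and 127616, 112832 and 107178 in the other 3. SLC30A1 stood at 81.1 (71.3 to 91.9) in cluster 24 and at 47.2, 60.3 and 58.3 in the others. SLC39A14 had cluster 24 (9.16) inside the range of the others (7.09, 8.28 and 19.1). All these are cells of 1 library, the intervals cover counting error only, and the metal genes were left out when the clusters were made.

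The graft also held clusters without a name, of which 1 had still more. Cluster 23.3 (259 cells), led by BDKRB2, IL1RL1 and GREM1, had 6855 CPM of MT1X and 2122 of MT1A. A neighbouring unnamed cluster (267 cells), led by NEXN, GREM1 and BDKRB2, had 2541 and 391. Of the 2 fibroblast-like clusters beside them, 23.1 had 2000 and 443 and 23.2, led by PTX3 and IL6, had 787 and 144. The graft fibroblast-like class therefore spanned a wide range. Control fibroblast-like cells lay mostly in another cluster, number 12, and the summed fibroblast markers stood at 20648 CPM in the graft against 64953 to 91059 in controls. At cell level, the tenth of AT2-like cells with the most MT1X held 67.0% of its UMIs, against 42.2% in basal-like and 50.5% in blood endothelial-like cells. In thinned AT2-like cells an MT1A UMI was found in 19.1% of cells with an MT1X UMI and in 3.32% of those without. That pair shares cells, library and depth and may share reads.

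**Figure D2:**
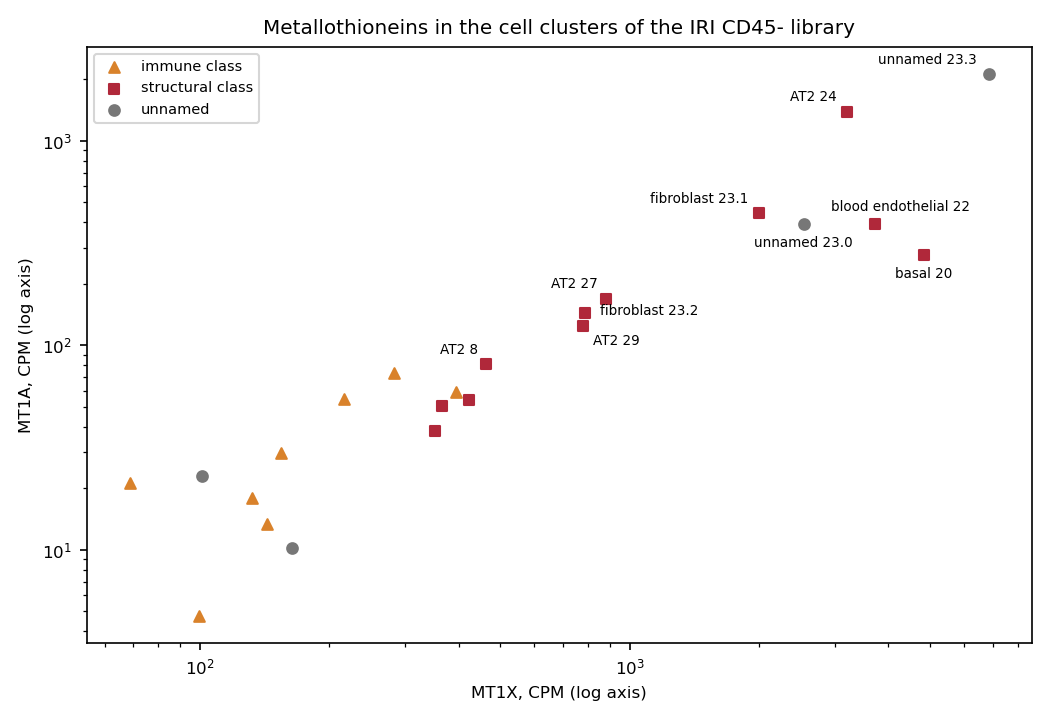
MT1X (horizontal) against MT1A (vertical), both in CPM on log axes, in each cluster with at least 50 cells of the IRI CD45- library (orange triangles immune, red squares structural, grey circles unnamed). AT2 cluster 24 (3208 and 1391) stands apart from AT2 clusters 8, 27 and 29, and unnamed cluster 23.3 is highest in both.

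SFTPC outside AT2-like cells can come from free RNA or from doublets, which were not told apart, and empty droplets were not analysed here. If all SFTPC outside AT2-like cells had come with the other RNA of AT2-like cells in a fixed ratio, blood endothelial-like cells, with 35.9% of the AT2 level of SFTPC, would have held 368 CPM of MT1X, and the measured level was 10.1 times that. The measured level was 17.5 times the level so implied in basal-like and 5.83 times in fibroblast-like cells. It was 2.91 times in secretory-like, 2.80 times in ciliated-like and 1.24 times in AT1-like cells. In B-like, neutrophil-like and plasma-like cells of the same library it was 0.884, 0.881 and 1.06 times, close to the level so implied, and is given here as no more than that. For MT1A the ratios were 3.54 in basal-like, 3.77 in blood endothelial-like and 4.28 in fibroblast-like cells, but 0.605 in AT1-like, 1.12 in secretory-like and 1.28 in ciliated-like cells.

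**Figure D3:**
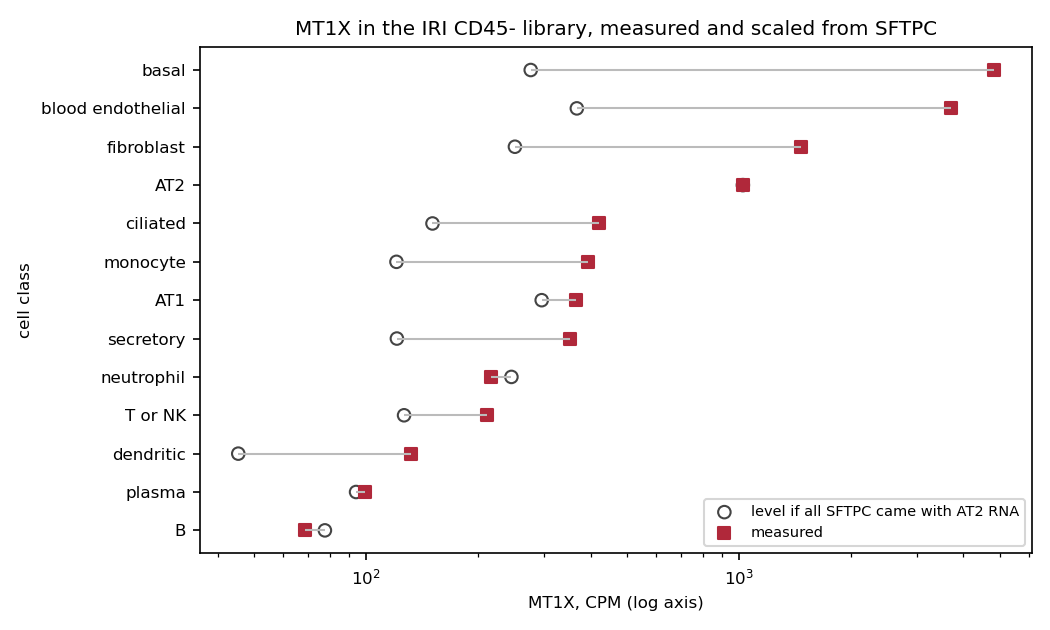
MT1X in CPM (log axis) by cell class of the IRI CD45- library, measured (red squares) and as it would be if all SFTPC of the class had come with AT2 RNA (open circles). Squares lie far to the right of circles for basal and blood endothelial cells, and close to them for B, plasma and neutrophil cells.

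Among immune cells, macrophage-like cells had the most MT1X after injury. MT1X stood at 35.9, 32.4 and 93.7 CPM in controls and at 761 and 827 in the CD45+ libraries, where 32 cells each were of this class. Both IRI values were above every control, 14.7 times the control mean (log2 change 3.96 ± 0.48, SE, n = 3 and 2). Of the 4 members, MT1X and SLC39A14 did not overlap with the controls, nor did 61.1% of all tested genes, a share from which nothing is read for members chosen on this contrast. MT1A gave no such separation: 3.23, 4.16 and 53.4 in controls, 26.9 and 14.9 in IRI, with control replicate 3 above both IRI values (log2 change 0.16 ± 2.07). That control level came from cluster 17, whose 148 cells in control replicate 3 held 150 CPM of MT1A and 208 of MT1X. In cluster 14, the main macrophage cluster, the 3 controls stood at 2.94, 0.973 and 0.836 for MT1A and at 35.3, 31.1 and 31.8 for MT1X, and the IRI libraries at 38.7 and 17.4 and at 1093 and 964. Without control replicate 3 the log2 change of MT1A was 2.65. Summed monocyte markers stood at 9535 and 7619 CPM in macrophage-like cells of IRI and at 4879, 6271 and 7393 in controls. CXCL2 made up most of the IRI sum, with 5603 and 6349 against 1628, 3180 and 2332, while CD14 (326 and 194 against 612, 590.3 and 350.0) and LYZ (247 and 257 against 1349, 446 and 1017) were lower in IRI. Monocyte-like cells themselves had less MT1X, 63.5 and 145 in the CD45+ libraries, and the part of these markers in the result was not tested.

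T or NK-like cells, the most numerous immune class, had low and even MT1X in controls, 24.2, 24.4 and 25.3 CPM. The CD45+ libraries had 38.0 and 128, both above every control, and MT1A stood at 2.64, 1.89 and 1.62 in controls against 4.45 and 27.4. In T or NK-like cells 2 of 4 members, MT1X and MT1A, did not overlap with controls, and 77.3% of all tested genes did not. The log2 changes were 1.94 ± 0.62 for MT1X and 3.12 ± 0.88 for MT1A. Replicate 2 of the IRI CD45+ libraries was far above replicate 1, and without it they were 0.83 and 1.32. Most control cells of this class lay in clusters 0, 2 and 3 and most IRI cells in clusters 10 and 11. In dendritic-like cells, MT1X stood at 12, 11 and 11.4 in controls and at 9.99 and 75.8 in IRI, so the groups overlapped and only replicate 2 was high. The log2 change there of 2.01 ± 0.56 became -0.21 without that replicate. MT1A, which did not pass the low-count filter there, stood at 0, 0 and 0.45 in controls and at 5.0 and 8.84 in IRI, above every control. The IRI values were 3 UMIs in 1 of 57 cells and 7 UMIs in 4 of 85 cells. The make-up of this class differed between groups: finer clustering set apart a plasmacytoid dendritic-like cluster with 77, 95 and 56 control cells and 0 and 1 cells of the CD45+ libraries.

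B-like and plasma-like cells had next to no MT1X in either group, at most 2.36 CPM in controls and 4.36 in the CD45+ libraries, and neither metallothionein passed the low-count filter there. Mast or basophil-like cells had 0 MT1X UMIs in all 3 controls and 27.3 and 9.30 CPM in IRI, from few cells. Neutrophil-like and monocyte-like cells had too few control cells to compare. In IRI they stood at 16.9 and 46.8 (neutrophil-like) and at 63.5 and 145 (monocyte-like). IRI CD45+ replicate 2 was the higher of the 2 replicates in 6 of 8 immune classes for MT1X and in 4 of 8 for MT1A.

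SLC39A14, the zinc and iron importer, had its highest graft levels in monocyte-like cells, with 240 and 339 CPM in the CD45+ libraries and 213 in the CD45- library. That name depends on the clustering. The class held 223 and 994 cells of the CD45+ libraries, and the monocyte-like cluster at finer clustering held 133 and 279. Clusters without a name there included 37.0, 37.2 and 37.5, with 136, 189 and 141 cells of CD45+ replicate 2. The mean SLC39A14 of the CD45+ immune sums was 80.6 at the main and 32.7 at the finer clustering. Neutrophil-like cells, also myeloid, had only 4.03 and 13.8 CPM of SLC39A14 in the CD45+ libraries and 10.3 in the CD45- library. In macrophage-like cells it stood at 39.5, 45.5 and 32.5 in controls and at 157 and 179 in IRI, 4.28 times the control mean (log2 change 2.19 ± 0.24). In dendritic-like cells it stood at 30.3, 36.5 and 22.7 against 70.0 and 90.9, and in B-like cells at 10.3, 12 and 14.1 against 26.2 and 29.8. The groups did not overlap in these 3 classes, and the log2 changes in the last 2 were 1.46 ± 0.25 and 1.22 ± 0.30. The dendritic-like value was 3.55 ± 0.34 with finer clustering, without the plasmacytoid dendritic-like cells of controls. In plasma-like cells the groups also did not overlap, with 23.6, 24.8 and 18.5 against 32.0 and 27, a log2 change of only 0.25 ± 0.27. In T or NK-like cells (12.2, 7.65 and 7.58 against 7.22 and 16.3) and mast or basophil-like cells (15.5, 14.7 and 0 against 6.83 and 55.8) they overlapped. Leaving out IRI CD45+ replicate 2 turned the T or NK-like value from 0.54 ± 0.34 to -0.13.

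By class, SLC39A14 was the 1 of 2 members tested whose groups did not overlap in B-like cells, where 60.6% of all genes tested did not, and in plasma-like cells, where 61.5% did not. In dendritic-like cells 2 of 3 members tested did not overlap (62.5% of all genes), and in mast or basophil-like cells the 1 member tested, SLC30A1, did not (52.4%). Members that did not pass the low-count filter were MT1A in dendritic-like cells, MT1A and MT1X in B-like and plasma-like cells, MT1A, MT1X and SLC39A14 in mast or basophil-like cells, and MT1A and SLC39A14 in ciliated-like cells. These counts come from the contrast that chose the members and support nothing.

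Among structural cells of the graft SLC39A14 was highest in fibroblast-like cells. They had 65.9, 51.1 and 51.1 CPM in controls and 169 in the graft (log2 change 1.89 ± 0.22). In controls the levels overlapped with those of lymphatic endothelial-like (83.0, 32.4 and 15.7) and smooth muscle or pericyte-like cells (47.9, 55.1 and 17.8). In the graft's fibroblast-like clusters it stood at 124 in cluster 23.1 and 222 in cluster 23.2, the reverse of the order for MT1X. Epithelial cells of the graft had little: 8.56 in AT2-like, 5.45 in basal-like, 3.92 in ciliated-like, 6.31 in AT1-like and 9.97 in secretory-like cells. Blood endothelial-like cells had 0, 0 and 7.55 in controls and 68.4 in the graft. Within the class, the 322 cells with a UMI of a lymphatic marker held 109 CPM and the 327 cells without held 4.87, where controls without held 0, 0 and 4.35. The graft value of 68.4 lies within the range of lymphatic endothelial-like cells of controls. The fitted log2 change was 4.46 ± 0.73 for the whole class and 8.24 without control replicate 3.

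**Figure D4:**
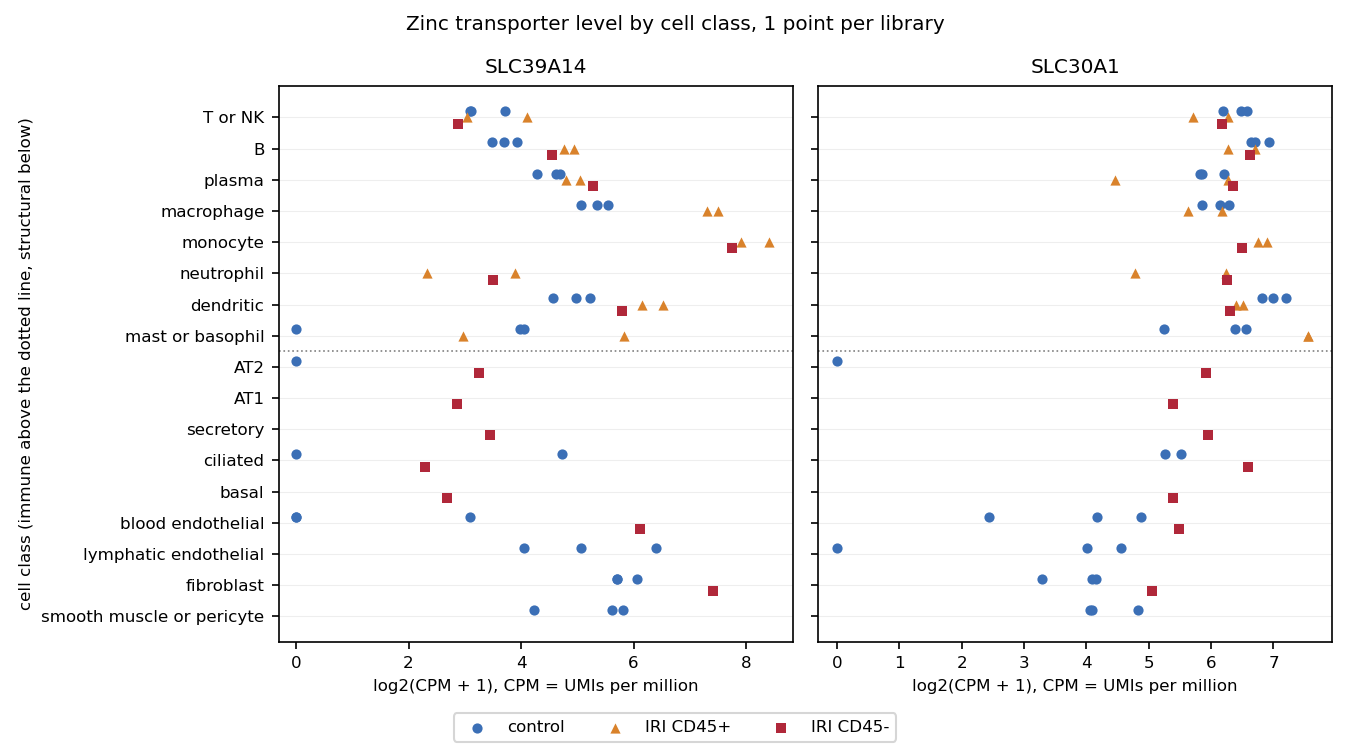
Levels of SLC39A14 (left) and SLC30A1 (right) as log2(CPM + 1) by cell class, 1 point per library (blue circles control, orange triangles IRI CD45+, red squares IRI CD45-). For SLC39A14 the IRI points of macrophages, dendritic cells, B cells and fibroblasts lie to the right of the controls. SLC30A1 is higher in immune than in structural classes of controls, except that mast cells or basophils (lowest 36.7 CPM) overlap with ciliated cells (37.3 and 44.9). Mast cells or basophils of IRI have the highest value.

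SLC30A1, the zinc exporter, was present in every immune class, and its groups overlapped in 4 of the 6 classes compared. In T or NK-like cells it stood at 71.9, 88.5 and 94.7 CPM in controls and at 51.5 and 76.0 in IRI, and in B-like cells at 103, 98.5 and 121 against 76.4 and 103. In macrophage-like cells it stood at 56.8, 69.9 and 76.7 against 71.0 and 48.4, and in plasma-like cells at 55.4, 57.1 and 73.1 against 21.0 and 76.6. The classes just named are those that overlapped (log2 changes -0.22 ± 0.17, -0.24 ± 0.19, -0.06 ± 0.29 and -0.48 ± 0.43). In dendritic-like cells it stood at 90.0 and 83.4 in IRI against 111, 127 and 146 (log2 change -0.54 ± 0.18), but the change was -0.093 ± 0.22 with finer clustering, which takes out the plasmacytoid dendritic-like cells found almost only in controls. Mast or basophil-like cells were higher, 188 and 186 against 93.0, 36.7 and 82.6 (1.27 ± 0.53), and no other class or library had a higher level. At the main clustering the groups did not overlap in either class. Finer clustering also moved the macrophage-like value, from -0.06 to 0.50.

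The measured SLC30A1 was higher in 3 structural classes of the graft than in those of controls. Fibroblast-like cells had 8.73, 16.8 and 16.1 CPM in controls and 32.0 in the graft (log2 change 1.39 ± 0.43). Blood endothelial-like cells had 4.41, 28.5 and 17 against 43.7 (1.73 ± 0.64), and ciliated-like cells 37.3 and 44.9 against 95.5 (1.56 ± 0.64). The graft value was above every control in each of these 3 classes. The level implied by SFTPC, if it came with AT2 RNA in a fixed ratio, was 14.5 in fibroblast-like, 21.2 in blood endothelial-like and 8.71 in ciliated-like cells, so the measured values were 2.21, 2.06 and 11.0 times it. The part of AT2 RNA in the first 2 was not tested. In graft blood endothelial-like cells without a lymphatic marker UMI it was 29.2, against 0, 5.91 and 15.2 in controls. AT2-like, secretory-like and basal-like cells of the graft had 59.2, 60.7 and 40.9.

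Comparing compartments within grafts, all structural cells of the CD45- library were set against the immune cells of the CD45+ libraries. MT1X stood at 1125 CPM in structural cells and at 46.9 and 111 in immune cells, 14.2 times their mean. MT1A stood at 232 against 4.85 and 13.2 (25.6 times), SLC39A14 at 13.3 against 35.1 and 126 (0.165 times) and SLC30A1 at 61.2 against 60.3 and 93.9 (0.794 times). Both metallothioneins were thus higher and SLC39A14 lower in structural cells than in either immune library, and SLC30A1 lay between them. Against the 2005 immune cells of the CD45- library itself, which share its preparation, MT1X was 5.14 times and MT1A 5.23 times as high, SLC39A14 0.227 times and SLC30A1 0.752 times. With finer clustering the value of SLC39A14 was 0.70. SFTPC in the 2005 immune cells was at 11.4% of its AT2-like level. If it came with AT2 RNA in a fixed ratio, 117 CPM of MT1X and 32.8 of MT1A would be implied there. The measured levels in these immune cells, 219 and 44.2, were only 1.88 and 1.35 times that. The part of AT2 RNA in the metallothionein ratios was not tested. The value of SLC39A14 depends on which cells make up each compartment: AT2-like cells were 8145 of 12183 structural cells, and with each class given equal weight the ratio was 0.479. Monocyte-like cells numbered 994 in CD45+ replicate 2 and 223 in replicate 1, and SLC39A14 in all immune cells was higher in replicate 2.

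The same compartments were tested within control lungs, a contrast that did not choose the members. The control levels did enter the comparison of control with injured lungs that chose them. The p-values of the members are therefore not independent of that choice. Each control library gave a structural and an immune sum, with the library as a block, and edgeR's quasi-likelihood test was used with adjustment over all 16099 genes. In all, 3 of 4 members were called, where 64.3% of all genes tested were, so calls as such are common here. MT1X was higher in structural cells, with 180.5, 71.2 and 108 CPM against 17.6, 18.2 and 31.1 in immune cells (log2 difference 2.28 ± 0.32, edgeR adjusted p = 0.00162, higher in 3 of 3 libraries). SLC39A14 was also higher in structural cells, with 52.2, 46.2 and 43.1 against 20.1, 20.7 and 16.1 (1.25 ± 0.12, edgeR adjusted p = 4.99e-05, 3 of 3 libraries). SLC30A1 was lower, with 9.57, 18.4 and 17.1 against 71.7, 86.7 and 95.0 (-2.54 ± 0.15, edgeR adjusted p = 3.09e-06, 3 of 3 libraries). MT1A missed the threshold, with 21.1, 5.76 and 14 against 1.65, 1.57 and 10.8 (1.69 ± 0.63, edgeR adjusted p = 0.0606), and passed it without control replicate 3 (2.70). In controls SLC39A14 was thus higher in structural cells, in grafts lower. Control structural cells were mostly fibroblast-like (262, 1114 and 1478 cells) and graft structural cells mostly AT2-like, and the difference between those 2 contrasts was not tested.

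The other genes of zinc and copper handling moved in both directions. Lists of metallothioneins, zinc exporters of the SLC30 family, zinc importers of the SLC39 family and genes of metal sensing and copper handling held 37 further genes listed in all 6 libraries. In T or NK-like cells 12 of 29 tested rose and 6 fell (edgeR, adjusted p under 0.05; 65.4% of all genes were called). In dendritic-like cells 5 of 27 rose and 4 fell (36.5% of all genes), in plasma-like cells 4 of 24 and 3 (36.0%) and in B-like cells 2 of 26 and 4 (42.6%). In macrophage-like cells 3 of 28 rose and 3 fell (25.0%), and in mast or basophil-like cells 3 of 5 rose and 1 fell (27.2%). Among structural classes, where the test sets controls against 1 graft library assumed to vary like them, 7 of 29 rose and 5 fell in fibroblast-like (38.4%), 6 of 22 rose and 0 fell in blood endothelial-like (31.6%) and 1 of 10 rose and 1 fell in ciliated-like cells (24.2%). The count of 0 in blood endothelial-like cells was 1 gene at an unadjusted p under 0.05 with edgeR and 0 with DESeq2. The median log2 change over the lists was -0.13 in macrophage-like, 0.23 in T or NK-like and -0.03 in fibroblast-like cells, where that of all genes was -0.32, -0.04 and -0.41. Apart from mast or basophil-like cells, where 5 genes could be tested, these shares lie near or below the background, and nothing is called particular to the lists.

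Among zinc importers, SLC39A7 (ZIP7), which releases zinc from the endoplasmic reticulum and Golgi, rose in macrophage-like cells by 1.18 ± 0.29 (edgeR adjusted p = 0.0121) and in dendritic-like cells by 1.96 ± 0.26 (edgeR adjusted p = 0.000203). In plasma-like cells it rose by 1.52 ± 0.14 and in fibroblast-like cells by 1.43 ± 0.24 (edgeR adjusted p = 5.04e-07 and 0.000966). SLC39A6, a plasma membrane importer, rose in macrophage-like cells (1.48 ± 0.28, edgeR adjusted p = 0.00322) and in fibroblast-like cells (2.92 ± 0.27, edgeR adjusted p = 1.7e-05). SLC39A11 (ZIP11) fell in macrophage-like cells (-2.26 ± 0.60, edgeR adjusted p = 0.0186) and in T or NK-like cells (-1.73 ± 0.22, edgeR adjusted p = 1.25e-05). SLC39A8 (ZIP8), the closest relative of SLC39A14, fell in fibroblast-like cells (-3.28 ± 0.70, edgeR adjusted p = 0.00434). The classes come from the same libraries and share their controls, and each fibroblast-like value rests on 1 graft library. SFTPC in fibroblast-like cells of that library was at 24.5% of its AT2-like level. SLC39A6 and SLC39A7 were also found in AT2-like cells, and the part of AT2 RNA in their fibroblast-like values was not tested.

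Of the zinc exporters, SLC30A5, which loads the secretory pathway, rose in T or NK-like cells (1.93 ± 0.10, edgeR adjusted p = 1.91e-09) and in dendritic-like cells (1.27 ± 0.17, edgeR adjusted p = 0.000195). SLC30A3, an exporter into vesicles, rose, with 1 graft library against the controls, in blood endothelial-like cells (5.58 ± 1.03) and fibroblast-like cells (4.88 ± 0.62; edgeR adjusted p = 3.85e-06 and 0.000163). It stood there at 47.5 and 39.3 CPM in the graft, against 110.2 in AT2-like cells of the same library. SFTPC in those classes was at 35.9% and 24.5% of its AT2-like level, and the part of AT2 RNA in these values was not tested. MTF1 itself, the zinc sensor, named here for its role and after its values were seen, was at -0.27 ± 0.50 in macrophage-like, 0.23 ± 0.18 in T or NK-like and 0.75 ± 0.45 in fibroblast-like cells (edgeR adjusted p = 0.717, 0.273 and 0.196). MT3, a further metallothionein, rose in T or NK-like cells (0.83 ± 0.30, edgeR adjusted p = 0.0268).

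Copper genes were split as well. SLC31A1 (CTR1), the copper importer, fell in dendritic-like cells (-1.58 ± 0.23, edgeR adjusted p = 0.000406), in B-like cells (-1.33 ± 0.20, edgeR adjusted p = 1.95e-05) and in fibroblast-like cells (-1.37 ± 0.27, edgeR adjusted p = 0.00257). Its relative SLC31A2 rose in macrophage-like cells (1.34 ± 0.44, edgeR adjusted p = 0.044). COX17, which carries copper to cytochrome oxidase in mitochondria, rose in mast or basophil-like cells (3.56 ± 0.41, edgeR adjusted p = 3.27e-09). In fibroblast-like cells its log2 change was 2.92, with 1 graft library. COX17 stood between 551 and 701 CPM in the AT2-like clusters of that library, and SFTPC in its fibroblast-like cells was at 24.5% of the AT2-like level. The part of AT2 RNA in the fibroblast-like value was not tested. CCS, the copper chaperone of SOD1, and COMMD1, a regulator of copper export, fell in macrophage-like cells (-1.76 ± 0.53 and -1.43 ± 0.38, edgeR adjusted p = 0.0303 and 0.0187). In controls, 7 of the 32 genes tested from all 4 lists, members left out, were higher in structural cells and 10 lower. Of all genes tested there, 64.3% were called. SLC39A1 (2.28 ± 0.11), SLC39A8 (2.04 ± 0.26) and SLC30A3 (3.15 ± 0.50) were higher, and COX17 (-1.77 ± 0.17) and SLC39A6 (-1.25 ± 0.15) lower (edgeR adjusted p from 1.14e-06 to 0.000815).

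**Figure D5:**
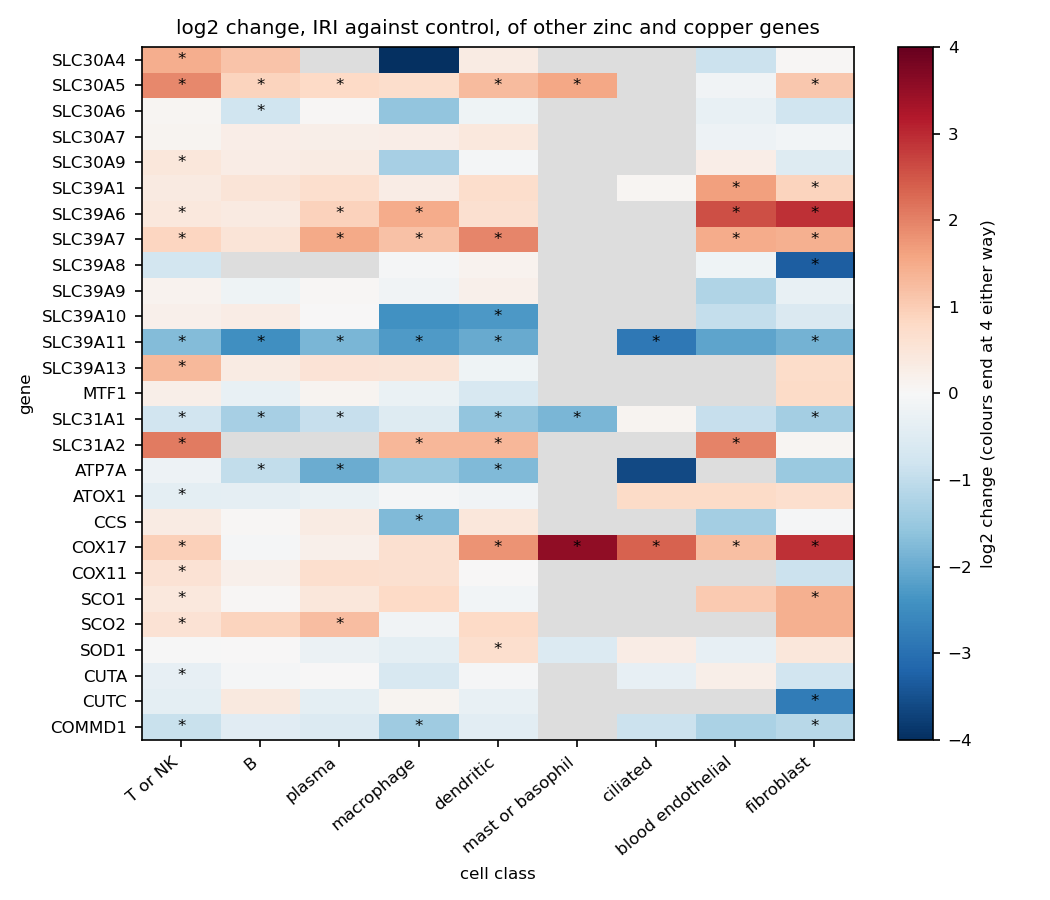
log2 change between control and IRI by cell class (columns) of the 27 other zinc and copper genes (rows) tested in at least 5 of 9 classes, in red where higher in IRI and in blue where lower, with grey for genes not tested. Stars mark an edgeR adjusted p under 0.05. SLC39A7 and SLC30A5 are red and SLC39A11 blue in most of the classes in which they were tested.

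The genes whose levels were most like each member's were ranked over 62 sums of class and library by Pearson's r of log2(CPM + 10), among 6074 genes. The sums share libraries and depth, and no p is given. For MT1X the likest gene was MT1A (0.92), followed by the TNF receptor TNFRSF1A (0.83), SH3GL1 (0.80), EMP1 (0.80) and POLR2K (0.79). For MT1A, genes among the likest after MT1X were the gap junction gene GJA1 (0.78), SH3GL1 (0.76) and SLC41A1 (0.76), a magnesium transporter. For SLC39A14 they were SNX9 (0.72), RAB31 (0.70), TPST1 (0.69), the metalloproteinase inhibitor TIMP1 (0.68) and the coagulation factor gene F13A1 (0.68). For SLC30A1 they were OAZ1 (0.78), DBNL (0.74), the interleukin-10 receptor IL10RA (0.73), ARPC2 (0.73) and TNFAIP8 (0.73). The 4 members were not alike as a set: SLC30A1 and MT1X had r = -0.21, SLC39A14 and MT1X 0.22, and SLC39A14 and SLC30A1 0.10.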

How the data were processed

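Each deposited file holds raw counts (UMIs of a gene in a cell), written by the tool PISA per the file headers. The genome build Sscrofa11.1 and the tools Seurat 5.5.3 and R 4.2.2 are named in the submitters' processing notes. No source used here gives the aligner or the annotation. Barcodes under 500 UMIs or 200 genes, or over 20% mitochondrial, were dropped. The mitochondrial limit could act only on controls, since the IRI libraries list 0 mitochondrial genes. The limit of 500 UMIs could act only on IRI libraries, since control barcodes start at 1001 UMIs. The quality filter was therefore not the same in the groups compared. The doublet caller marked 0 to 5 cells per library and so did not work, and removal of the top 6% of scores was tried instead. Clusters (scanpy 1.11.5, Leiden resolution 1.0, 2000 variable genes) were made without the 41 metal genes and named from marker lists, with T and NK cells pooled. Of 17062 Ensembl identifiers, 139 were given a symbol from the reference table, MT1X among them. Raw counts were summed per class and library (at least 20 cells) and tested with edgeR 4.0.16, glmQLFTest after TMM and filterByExpr, with Benjamini-Hochberg adjustment over all genes tested. The value after ± in a log2 change is an approximate standard error: the size of the change divided by the square root of edgeR's F statistic. For the members, in the comparisons that chose them, it is a description and not a test. DESeq2 1.42.0, other scalings, filters, clusterings and left-out libraries were alternatives. Libraries are the replicates. The labels do not say that each comes from a separate animal, so p-values measure the spread between libraries. The 3 controls and 2 IRI CD45+ libraries form the groups; IRI CD45- is 1 library. Tests were tried on simulated data. The members, lists and tests were chosen with earlier results of these data known. Named beside the members were up to 4 genes of each list with the smallest p per class, not all of them printed here, and the 5 likest genes per member, of which 1 is not reported here. Intervals are exact Poisson at 95%.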

Additional observations from a re-analysis of the deposited data

Results flagged for a closer look

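SLC30A1 lay on opposite sides of the controls in 2 immune classes of the same libraries. In mast or basophil-like cells both IRI CD45+ libraries were above every control, with a mean of 187 CPM (UMIs scaled to a common total). In dendritic-like cells both were below every control, with a mean of 86.7, but with finer clustering the log2 change there was -0.093 against -0.54. That clustering set apart plasmacytoid dendritic-like cells, 77, 95 and 56 in controls and 0 and 1 in the CD45+ libraries. The difference between the classes was not tested. The mast or basophil-like sums rest on 31 to 94 cells per library.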

How the results depend on the processing

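Of the alternatives, 97 of 107 counts of genes called stayed near the main count, and 287 of 318 log2 changes of a member were labelled the same. Between control and IRI, that label means a move smaller than the spread between libraries. A turn of sign was labelled reversed there only where the main change was called, so others could be labelled the same. Between compartments of controls, it means the same sign and side of the threshold. With DESeq2, 484 genes were called in mast or basophil-like (753 with edgeR), 329 in ciliated-like (1114), 1048 in blood endothelial-like (2458) and 3188 in fibroblast-like cells (5050). Finer clustering gave log2 changes in macrophage-like cells of 2.44 (SLC39A14) and 0.50 (SLC30A1), in dendritic-like cells of 3.55 and -0.093, and in fibroblast-like cells of 7.66 (MT1A) and 6.49 (MT1X). Library totals without TMM gave 4.72 (MT1X) and 1.14 (SLC30A1) in ciliated-like, 4.43 (MT1X) in blood endothelial-like and 1.62 (SLC39A14) in fibroblast-like cells. Without a filter on low counts SLC30A1 was 1.91 in ciliated-like and SLC39A14 1.64 in fibroblast-like cells, and without the top 6% of doublet scores MT1X was 4.71 and SLC30A1 1.82 in ciliated-like cells. MT1A in structural against immune cells of controls passed the threshold with DESeq2 (1.83), without the low-count filter (1.58) and without top doublet scores (1.52). In grafts the log2 ratio of SLC39A14 (-2.60) was -1.29 with finer clustering and -1.06 with equal weight of classes. With finer clustering the structural level of SLC39A14 stayed at 13.3 CPM, and the mean of the CD45+ immune sums went from 80.6 to 32.7. The monocyte-like cluster of that setting held 279 cells of CD45+ replicate 2, against 994 in the main class. The cause of these moves was not tested.

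Replicate numbers gave no pairing: correlations of same-numbered deviations lay between -0.05 and 0.06 over 2 pairs. With the replicate block, 1693 genes were called in macrophage-like cells (2683 without) and 475 in mast or basophil-like cells, and MT1A in macrophage-like cells was 2.58.

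With 1 library left out at a time, genes called ranged from 1669 to 2552 in macrophage-like (lowest without control replicate 1), 2441 to 3427 in dendritic-like (without control replicate 2), 436 to 658 in mast or basophil-like and 1370 to 2802 in blood endothelial-like cells (both lowest without control replicate 3). MT1A ranged from 1.32 to 3.94 in T or NK-like cells, -0.44 to 2.65 in macrophage-like cells and 0.86 to 2.70 between compartments of controls. MT1X ranged from 0.83 to 2.58 in T or NK-like, 3.70 to 4.66 in macrophage-like and, turning sign without IRI CD45+ replicate 2, from -0.21 to 2.82 in dendritic-like cells. SLC39A14 ranged from -0.13 to 1.04 in T or NK-like and 4.07 to 8.24 in blood endothelial-like cells. SLC30A1 ranged from -0.52 to 0.037 in T or NK-like, -0.49 to -0.00045 in B-like, -1.70 to 0.17 in plasma-like and -0.44 to 0.13 in macrophage-like cells.

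Library totals in place of TMM shifted the median log2 change of all genes by -0.41 in ciliated-like, -0.39 in blood endothelial-like, -0.27 in fibroblast-like, -0.21 in T or NK-like, -0.10 in macrophage-like, 0.14 in plasma-like and 0.17 in mast or basophil-like cells. The share of called genes that were higher in IRI moved from 61.6% to 37.0%, 56.7% to 37.2%, 47.4% to 35.3% and 47.7% to 37.3% in the first 4, and from 41.2% to 51.4% and 45.2% to 56.9% in the last 2. Depth limits the macrophage-like IRI sums (32 cells each). In B-like and plasma-like cells the metallothioneins were very low in both groups. MT1X there was at most 2.36 CPM in controls and 4.36 in the CD45+ libraries, and a small change was not detectable.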
